A study of Mus musculus with 21 samples.

Results

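The data described here are RNA sequencing libraries of mouse bone-marrow-derived macrophages given dimethyl malonate (DMM) and no lipopolysaccharide (LPS), set against untreated macrophages. They are 4 DMM libraries and 3 control libraries, 7 of the 21 libraries in the deposited count table, chosen by the treatment named in their column headings. The marrow came from C57bl/6 mice aged 12 weeks and was grown for 6 days in L929 medium, which supplies macrophage colony-stimulating factor (M-CSF). Per the labels, DMM or succinate was given for 3 h before a further period of 4 or 48 h. DMM libraries 1 and 3 and control libraries 1 and 3 were taken as the 4 h set, and DMM libraries 2 and 4 and control library 4 as the 48 h set. The column headings give no time for libraries without LPS, so this split was inferred from the numbers in their names. A further 4 libraries, given succinate without LPS and numbered the same way, entered the fit and served as a second group to compare with. The dose of DMM, the sex of the mice and whether replicates came from separate mice or cultures are not stated in the labels, so every p-value measures only the spread between these libraries, which may be technical.

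DMM is a diester that crosses membranes and is cleaved inside the cell to malonate, a competitive inhibitor of succinate dehydrogenase. That enzyme, complex II of the respiratory chain, oxidises succinate to fumarate in the TCA cycle and passes the electrons on to ubiquinone. In macrophages the oxidation of succinate is known for its part in the response to LPS, through mitochondrial oxygen radicals, Hif1a and interleukin 1β. Here no LPS was given, and the comparison shows the resting cells with and without the inhibitor.

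The DMM libraries held 662186 to 1032193 counts and the controls 832129 to 852811. Of 34573 genes in the table, 5219 had enough counts to be tested, and levels are given in CPM, the counts of a gene scaled to a common library size. Csf1r, the M-CSF receptor, had 4523, 5702, 5237 and 6211 CPM in DMM libraries 1 to 4, against 6472, 6146 and 6339 CPM in control libraries 1, 3 and 4. The 29 markers of macrophage identity in the table summed to 64302 to 97165 CPM in the DMM libraries and 73965 to 92822 CPM in the controls, and none of the 23 tested was called with the sets pooled. In the 4 h set 3 of them rose: Mrc1, the mannose receptor (log2 fold change 1.35, adjusted p = 0.00728), Itgam (0.92, adjusted p = 0.0164) and Cd5l (0.86, adjusted p = 0.0295). Their log2 fold changes in the 48 h set were -0.33, 0.15 and -0.11. Of markers of other cells, 7 of 8 erythroid, 6 of 9 mast cell and basophil, 8 of 14 T and NK cell, 6 of 15 neutrophil, 5 of 11 megakaryocyte, 4 of 9 B cell, 3 of 11 dendritic cell and 2 of 12 stromal genes in the table had no count in any of the 11 unstimulated libraries. The neutrophil markers summed to 23.5 to 40.7 CPM in the DMM libraries and 5.86 to 20.4 CPM in the controls. The T and NK cell markers summed to 54.4 to 74.6 CPM in the DMM libraries and 89.2 to 167 CPM in the controls, and Cd28 was the tested one and fell (log2 fold change -0.83). Cd28 was not called without DMM library 1 or control library 1 (adjusted p up to 0.14). The dendritic cell markers summed to 119 to 195 CPM in the DMM libraries and 210.3 to 267 CPM in the controls. Only 1 of them was tested, Bst2, which is also among the type I interferon response genes below. It was not called with the sets pooled (log2 fold change -0.58, adjusted p = 0.0564). The B cell markers summed to 110.2 to 207 CPM in the DMM libraries and 72.1 to 145 CPM in the controls. The part of these cells in the results was not tested. In bulk RNA, fewer cells of a type and less RNA per cell cannot be told apart.

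2 features of the libraries bear on what follows. First, DMM library 2 was close to the library labelled LPS 48 h 1: a chi-square comparison of their counts gave 1.19 per degree of freedom, against 2.77 or more in the other 209 of 210 pairs. The library labelled LPS 48 h 1 held 42.8 CPM of the LPS-induced gene Saa3 by total count, against 31.0 CPM in DMM library 2 and 75474 CPM in the other LPS 48 h library, so the library labelled LPS 48 h 1 went against its label and was kept out of the fit. Without DMM library 2, 142 genes were called in place of the 153 described below, 118 of them shared. Second, the DMM libraries of the 4 h set lay between the sets. Over 307 genes higher and 212 genes lower in the 48 h set among control and succinate libraries, a score of mean log2 difference was 1.15 and 1.5 in DMM libraries 1 and 3 of the 4 h set. It was 0.21 to 0.42 in the control and succinate libraries of the 4 h set, and 1.93 to 2.33 in all libraries of the 48 h set. The genes were chosen on the control and succinate libraries, so the distance between the sets there was set by that choice. With DMM library 3 counted to the 48 h set, a choice made after seeing the data, 36 genes were called in place of 153.

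**Figure D1:**
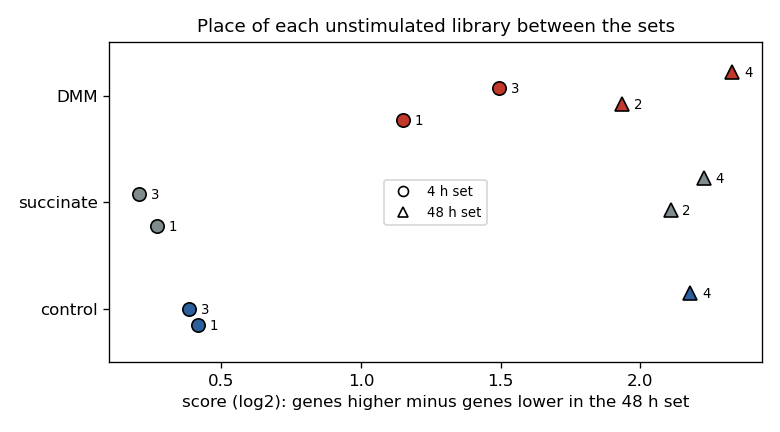
Score of each unstimulated library over the genes that separate the 48 h set from the 4 h set (x axis, log2), which were chosen on the control and succinate libraries. DMM libraries 1 and 3 (circles, 4 h set) sit at 1.15 and 1.5, between the 4 h control and succinate libraries at 0.21 to 0.42 and the 48 h libraries (triangles) at 1.93 to 2.33; numbers beside the points are library numbers.

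With the sets pooled and the set as a covariate, 153 of 5219 genes (2.93%) were called at an adjusted p under 0.05: 76 were higher with DMM (1.46% of those tested) and 77 lower (1.48%). The median log2 fold change was 1.13 for the higher genes, -0.83 for the lower genes and 0.01 for all genes tested. Each of the 153 had the same sign in the 4 h set and in the 48 h set. Choosing genes by the pooled test on these same libraries favours equal signs, so this is no separate support. The DMM libraries lay above every control for 54 of the 76, as for 5.71% of all genes tested, and below every control for 57 of the 77, as for 6.11%. In all, 11.8% of the genes tested had groups that did not overlap. Leaving out control library 1 left 44 calls, control library 3 left 84, control library 4 left 93 and DMM library 1 left 92. 33 genes, 16 higher and 17 lower, were called whichever of the 7 libraries was left out. Counts for gene lists below are with the sets pooled unless a set is named. They are to be read beside the 1.46% of all genes tested that were called higher and the 1.48% called lower.

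The called genes also differed between the sets in the succinate libraries, which are on neither side of this comparison but entered the fit and its estimates of the set term and the spread. There, 59 of the 76 genes higher with DMM were higher in the 48 h set than in the 4 h set, and 64 of the 77 genes lower with DMM were lower. Of all genes tested, 48.9% were higher in the 48 h succinate libraries. Whether this set difference had a part in the DMM result was not tested.

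**Figure D2:**
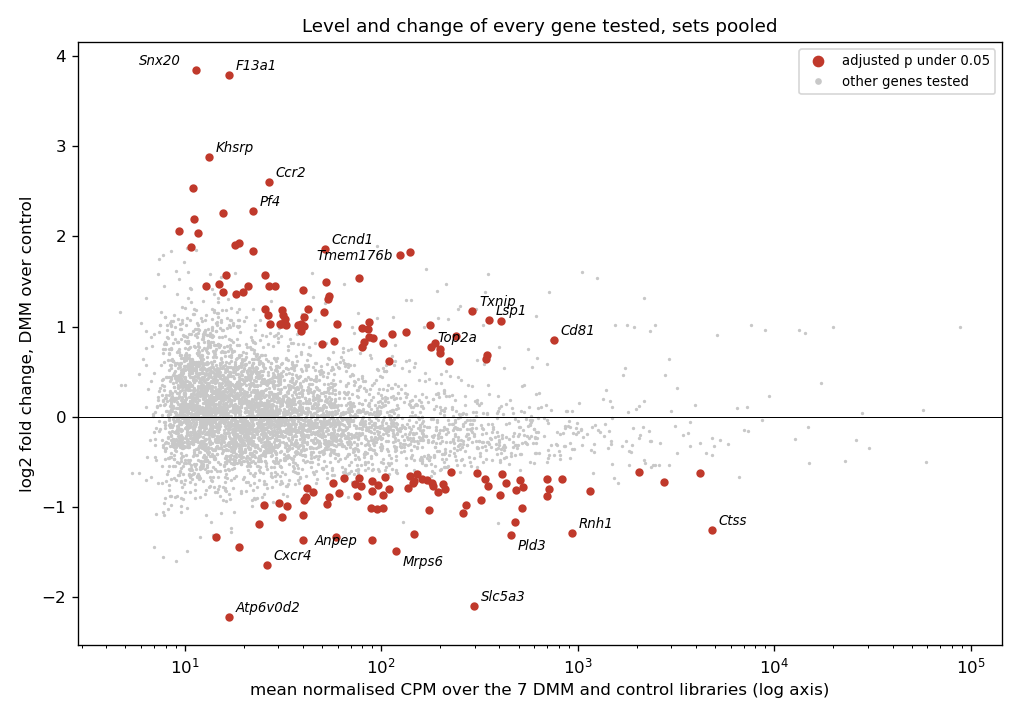
Mean level of each of the 5219 genes tested (x axis, normalised CPM, log scale) against its log2 fold change, DMM over control (y axis). The 153 called genes are red: 76 lie above 0, led by Snx20 and F13a1, and 77 below 0, led by Atp6v0d2 and Slc5a3.

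The gene with the smallest adjusted p was Slc5a3, the sodium-coupled transporter that brings the osmolyte myo-inositol into cells. It had 198, 19.8, 201 and 44.7 CPM in DMM libraries 1 to 4, against 781, 644 and 186 CPM in control libraries 1, 3 and 4. In each set both DMM libraries lay below every control of that set, while the 4 h DMM libraries were level with the 48 h control. The log2 fold change was -2.09 ± 0.21 (SE; adjusted p = 8.94e-07), with -1.84 in the 4 h set and -2.54 in the 48 h set. Mrps6, a protein of the small mitochondrial ribosomal subunit, had 96.1, 20.7, 93 and 35.8 CPM in DMM libraries 1 to 4, against 299, 212 and 75.8 CPM in control libraries 1, 3 and 4, a log2 fold change of -1.48 ± 0.21 (SE; adjusted p = 5.36e-05). Both were called whichever library was left out.

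Slc5a3 and Mrps6 overlap in the annotation and start 14 bases apart on the same strand, so their reads could not be fully told apart in counts per gene and they are not 2 independent results. Their shared start region is shown for that reason (RefSeq, GRCm38.p6, chr16:92058072-92058371, plus strand, 5′ to 3′), with the 50 bases from the Slc5a3 start on in capitals.
Slc5a3: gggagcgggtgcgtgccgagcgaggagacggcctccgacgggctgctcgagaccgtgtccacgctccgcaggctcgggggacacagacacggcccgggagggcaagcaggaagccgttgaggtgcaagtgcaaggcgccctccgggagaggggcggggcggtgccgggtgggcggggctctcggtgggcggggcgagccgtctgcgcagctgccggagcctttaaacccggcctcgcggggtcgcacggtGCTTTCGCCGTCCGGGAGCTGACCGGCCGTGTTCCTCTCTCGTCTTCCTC

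Of 14 genes for osmolyte transporters and other targets of the tonicity factor Nfat5, 9 were tested, 1 (Slc5a3) fell and none rose. 8 of the 9 had a negative log2 fold change, where 49.3% of all genes tested did, and the median was -0.54. Slc6a12, the betaine transporter, had 92.5, 32.8, 86.3 and 41.8 CPM in DMM libraries 1 to 4, against 348, 259 and 40.2 CPM in control libraries 1, 3 and 4. Its log2 fold change was -1.77 in the 4 h set (adjusted p = 7.37e-05) and -0.12 in the 48 h set (adjusted p = 0.96), and the pooled change was not called (adjusted p = 0.0589). The difference between the sets had an unadjusted p of 0.000794 and an adjusted p of 0.345. The taurine transporter Slc6a6 had 2486, 1864, 2457 and 1858 CPM in DMM libraries 1 to 4, against 3607, 3109 and 2821 CPM in control libraries 1, 3 and 4, without overlap, and missed the threshold (adjusted p = 0.0897). Nfat5 itself had at most 10 counts in any of the 11 libraries and was not tested.

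Lysosomal genes were the largest group of lower genes in the lists. Of 49 genes for lysosomal hydrolases and the vacuolar proton pump, 47 were tested, 7 fell and none rose. 42 of the 47 had a negative log2 fold change, where 49.3% of all genes tested did, and the median was -0.46. By total count the 49 genes summed to 75562 to 103916 CPM in the DMM libraries and 119539 to 120134 CPM in the controls, with no overlap. The succinate libraries summed to 100678 to 116454 CPM, also below every control and overlapping the range with DMM. The 7 that fell were Ctss, Cd63 and 5 genes of the proton pump, which acidifies lysosomes: Atp6v0c, Atp6v0d2, Atp6v1a, Atp6v1c1 and Atp6ap1. Atp6v0c was not called without DMM library 1, 2 or 4 or control library 1, 3 or 4 (adjusted p up to 0.125), Atp6v1c1 was not called without DMM library 1 or control library 1 or 3 (adjusted p up to 0.155), and Atp6ap1 was not called without DMM library 1 or control library 1 or 3 (adjusted p up to 0.0759). The count was 2 without control library 1, 3 without control library 3 or DMM library 1, and 16 without DMM library 3.

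Atp6v0d2, the d2 subunit of the pump's membrane sector, known from osteoclasts and from fused macrophages, had the most negative fold change of the named genes. It had 3.63, 7.76, 4.48 and 7.95 CPM in DMM libraries 1 to 4, against 24.5, 38.7 and 31 CPM in control libraries 1, 3 and 4, a log2 fold change of -2.22 ± 0.35 (SE; adjusted p = 0.000265). Its 4 DMM values were at most 7.95 CPM and its 7 control and succinate values at least 24.5 CPM. Cathepsin S (Ctss), a lysosomal protease that trims the invariant chain of MHC class II, had 2927, 2002, 3897 and 2678 CPM in DMM libraries 1 to 4, against 8343, 8764 and 5092 CPM in control libraries 1, 3 and 4. Its log2 fold change was -1.26 ± 0.17 (SE; adjusted p = 2.56e-05), with -1.33 in the 4 h set and -1.12 in the 48 h set. Every DMM library lay below every control for both genes, and both calls held whichever library was left out.

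Atp6v1a, the catalytic subunit of the pump's cytosolic sector, had 899, 619.9, 1084 and 746 CPM in DMM libraries 1 to 4, against 1919, 1773 and 1085 CPM in control libraries 1, 3 and 4, a log2 fold change of -0.82 ± 0.16 (SE; adjusted p = 0.00337), which was not called without control library 1 (adjusted p = 0.0527). The tetraspanin Cd63 had 417, 385, 716 and 529.9 CPM with DMM and 988, 1039 and 836 CPM in the controls, and its call was lost without control library 1 or 3 or DMM library 1 (adjusted p up to 0.064). Of 5 tested genes of the osteoclast list 1 fell, which was Atp6v0d2, and Clcn7 and Ostm1, the lysosomal chloride-proton antiporter and its partner, had log2 fold changes of -0.29 and -0.07.

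Many lysosomal genes are targets of Tfeb, whose binding element holds CACGTG. The Atp6v1a promoter is shown because it alone among the 5 called lysosomal genes with a RefSeq window holds these letters, in capitals, 131 bases before the start (GRCm38.p6, chr16:44139210-44139509, minus strand).
Atp6v1a: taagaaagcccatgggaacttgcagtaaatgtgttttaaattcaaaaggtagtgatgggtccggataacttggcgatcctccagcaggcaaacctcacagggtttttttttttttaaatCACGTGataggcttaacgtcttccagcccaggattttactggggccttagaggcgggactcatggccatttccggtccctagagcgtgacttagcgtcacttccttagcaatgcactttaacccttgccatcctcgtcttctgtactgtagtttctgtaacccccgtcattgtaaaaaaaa
CACGTG reads the same on both strands and is found in 7.15% of all 32851 windows of this length. It was in 13 of 36 lysosomal genes with a window, in 11 of 58 lower genes, in 5 of 58 higher genes and in 493 of 3807 tested genes. A match is a description of the letters and no evidence of binding.

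Among the other lower genes, Pld3, an endolysosomal exonuclease that was not in the lists, had 261, 222, 355 and 226 CPM in DMM libraries 1 to 4, against 792, 857 and 480.1 CPM in control libraries 1, 3 and 4. Its log2 fold change was -1.31 ± 0.17 (SE; adjusted p = 2.56e-05). Cystatin B (Cstb), an inhibitor of cathepsins, had 346, 164, 441 and 264 CPM with DMM and 854, 731 and 539 CPM in the controls (log2 fold change -1.17, adjusted p = 0.000531). The groups did not overlap for either gene.

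Cxcr4, the receptor of the chemokine Cxcl12, had 3.63, 8.62, 19 and 14.9 CPM in DMM libraries 1 to 4, against 68.7, 49.4 and 19.5 CPM in control libraries 1, 3 and 4 (log2 fold change -1.65, adjusted p = 0.00579). Without control library 1 it was not called (adjusted p = 0.0837). Npy, which encodes the neuropeptide Y precursor, had 19.9, 20.7, 22.4 and 25.9 CPM in DMM libraries 1 to 4, against 90.9, 60 and 41.3 CPM in control libraries 1, 3 and 4 (log2 fold change -1.37, adjusted p = 0.00176). The synaptic vesicle protein gene Syngr1 had 85.2, 59.5, 138 and 61.6 CPM with DMM and 275, 256 and 156 CPM in the controls (log2 fold change -1.30, adjusted p = 3.72e-05).

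Anpep, the surface aminopeptidase CD13, had 65.3, 25, 80.7 and 32.8 CPM in DMM libraries 1 to 4, against 151, 187 and 85 CPM in control libraries 1, 3 and 4 (log2 fold change -1.37, adjusted p = 0.000265). Ttyh2, a chloride channel family gene, had 39.9, 19.8, 52.7 and 26.8 CPM with DMM and 109.5, 93.4 and 71.2 CPM in the controls (log2 fold change -1.33, adjusted p = 0.001). Ncoa4, the receptor that carries ferritin to lysosomes, had 9.07, 6.90, 14.6 and 11.9 CPM with DMM and 34.9, 26.7 and 28.7 CPM in the controls (log2 fold change -1.44, adjusted p = 0.0123); it was not called without control library 1 or 4 (adjusted p up to 0.104). For Npy, Syngr1, Anpep, Ttyh2 and Ncoa4 every DMM library lay below every control. Succinate libraries 1 to 4 held 64.0, 39.1, 30.4 and 39.3 CPM of Ttyh2 and 10.9, 18.3, 26.3 and 13.4 CPM of Ncoa4, also below every control. Neither gene was called for DMM against succinate (adjusted p = 0.659 and 0.377). Rnh1, the cytosolic ribonuclease inhibitor, had 609, 351, 757 and 352 CPM in DMM libraries 1 to 4, against 2025, 1732 and 714 CPM in control libraries 1, 3 and 4 (log2 fold change -1.29, adjusted p = 1.78e-05), and its 4 h DMM libraries overlapped the 48 h control.

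Genes of lipid handling gave 3 lower and no higher calls among 19 tested, where 1.48% of all genes tested were called lower. The list's median was -0.21, and 7 of the 19 had a positive log2 fold change. Plin2, which coats lipid droplets, had 441, 328, 481 and 301 CPM in DMM libraries 1 to 4, against 856, 854 and 449 CPM in control libraries 1, 3 and 4 (log2 fold change -0.78, adjusted p = 0.00579). The cholesterol exporter Abcg1 had 285, 296, 436 and 416 CPM with DMM and 821, 624 and 507 CPM in the controls (log2 fold change -0.81, adjusted p = 0.0137). Acaca, the acetyl-CoA carboxylase that starts fatty acid synthesis, had 21.8, 14.7, 24.7 and 8.95 CPM with DMM and 39.6, 36 and 31 CPM in the controls (log2 fold change -0.98, adjusted p = 0.0456). Plin2 was not called without control library 1 or 3 (adjusted p up to 0.0759). Abcg1 was not called without DMM library 1 or control library 1 (adjusted p up to 0.171), and Acaca was not called without DMM library 1, 2 or 4 or control library 1, 3 or 4 (adjusted p up to 0.19).

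**Figure D3:**
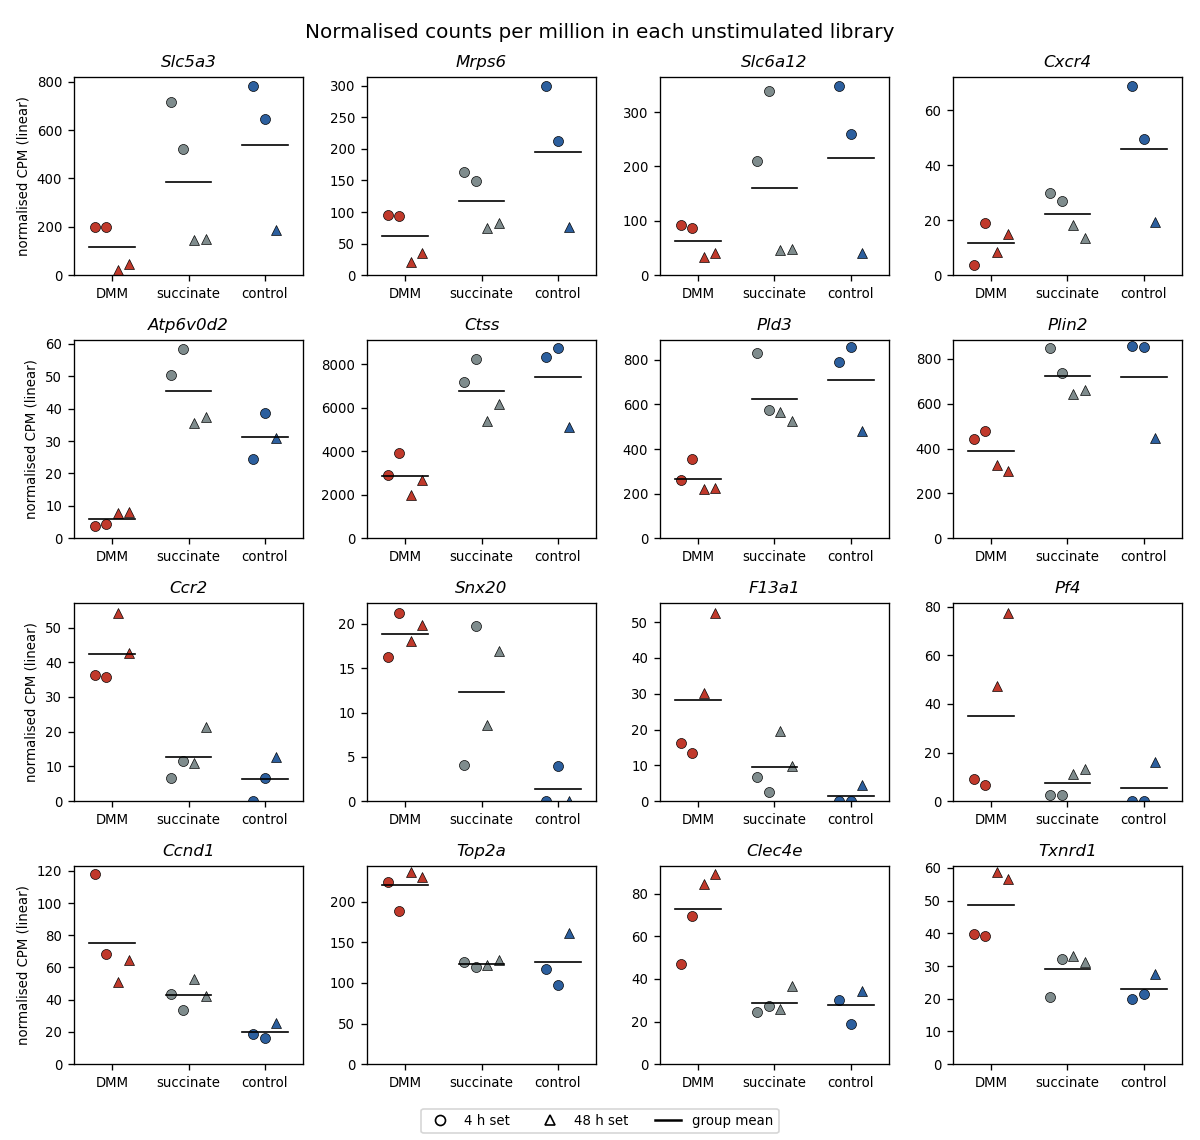
Normalised CPM (y axis, linear, each panel on its own scale) of 16 genes in every unstimulated library: DMM, succinate and control, with circles for the 4 h set, triangles for the 48 h set and a bar at the group mean. Atp6v0d2 sits at 7.95 CPM or less in the 4 DMM libraries and at 24.5 CPM or more in the other 7, while Slc5a3 differs between the sets as well as between DMM and control.

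Among 12 tested genes for chemokines and their receptors, Ccr2 and Pf4 were among those that rose and Cxcr4 fell. Ccr2, the receptor for Ccl2 that marks inflammatory monocytes, had 36.3, 54.3, 35.9 and 42.8 CPM in DMM libraries 1 to 4, against 0, 6.67 and 12.6 CPM in control libraries 1, 3 and 4, a log2 fold change of 2.60 ± 0.42 (SE; adjusted p = 0.000447). All DMM libraries lay above all controls. Ccr2 has close paralogs, so the counting could have split some of its reads.

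F13a1, the A chain of coagulation factor XIII, made by monocytes and macrophages, had 16.3, 30.2, 13.4 and 52.7 CPM in DMM libraries 1 to 4, against 0, 0 and 4.59 CPM in control libraries 1, 3 and 4. Its log2 fold change was 3.79 ± 0.58 (SE; adjusted p = 0.000219). No read was counted in the 4 h controls, so the 4 h level with DMM was at least 7.80-fold higher, taking 3 counts over these 2 controls as the floor. Pf4, platelet factor 4, had 9.07, 47.4, 6.72 and 77.6 CPM in DMM libraries 1 to 4, against 0, 0 and 16.1 CPM in control libraries 1, 3 and 4 (log2 fold change 2.28, adjusted p = 0.00287), and on the same floor its 4 h level was at least 4.08-fold higher.

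Pf4 also belongs to the markers of megakaryocytes and platelets, where 1 of 2 tested rose and Vwf had 14.5, 12.1, 6.72 and 15.9 CPM with DMM and 22.1, 17.3 and 11.5 CPM in the controls. Of 16 inflammatory monocyte markers, 6 were tested and 2 rose, Ccr2 and F13a1. The monocyte markers together summed to 1521 to 2451 CPM in the DMM libraries and 2306 to 3091 CPM in the controls, and S100a4 among them had 1129.7, 801, 1628 and 1217 CPM with DMM and 2444, 1916 and 1541 CPM in the controls (log2 fold change -0.68, adjusted p = 0.0571). Itgam, the integrin chain CD11b, had 348, 425, 359.7 and 442 CPM with DMM and 182, 193 and 391 CPM in the controls (log2 fold change 0.59, adjusted p = 0.0694 with the sets pooled). It rose in the 4 h set, as given above, with a log2 fold change of 0.15 in the 48 h set (adjusted p = 0.92), and the difference between the sets had an unadjusted p of 0.0276 and an adjusted p of 0.913.

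Snx20, a sorting nexin that binds the selectin ligand PSGL-1, had 16.3, 18.1, 21.3 and 19.9 CPM in DMM libraries 1 to 4, against 0, 4.00 and 0 CPM in control libraries 1, 3 and 4. The controls held 3 counts in all, a ratio of 15.8 with a 95% counting interval of 5.18 to 78.5 that covers counting error only. Spn, the leukocyte sialoglycoprotein CD43, had 21.8, 23.3, 10.1 and 13.9 CPM in DMM libraries 1 to 4, against 4.66, 0 and 3.45 CPM in control libraries 1, 3 and 4 (log2 fold change 2.53, adjusted p = 0.00962). Without control library 3 or 4 Spn was not called (adjusted p up to 0.0637). Succinate libraries 1 to 4 held 9.53, 4.89, 13.2 and 12.5 CPM of Spn, also above every control. It was not called for DMM against succinate (adjusted p = 0.492).

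Parvg, an actin-binding parvin of blood cells, had 12.7, 36.2, 17.9 and 29.8 CPM in DMM libraries 1 to 4, against 2.33, 4.00 and 6.89 CPM in control libraries 1, 3 and 4 (log2 fold change 2.26, adjusted p = 0.00172), and without control library 4 its adjusted p was 0.0518. Khsrp, an RNA-binding protein that takes part in mRNA decay, had 38.1, 20.7, 17.9 and 7.95 CPM with DMM and 3.49, 4.00 and 1.15 CPM in the controls (log2 fold change 2.88, adjusted p = 0.00961), and without any 1 of the 3 controls it was not called (adjusted p up to 0.0977). Succinate libraries 1 to 4 held 28.6, 23.2, 11.5 and 8.04 CPM of Khsrp, close to the values with DMM. The tetraspanin Tspan32 had 5.44, 27.6, 19 and 14.9 CPM with DMM and 2.33, 5.34 and 3.45 CPM in the controls (log2 fold change 2.19, adjusted p = 0.0137). Smpdl3b, a membrane phosphodiesterase, had 14.5, 17.2, 10.1 and 13.9 CPM with DMM and 2.33, 4.00 and 3.45 CPM in the controls (log2 fold change 2.06, adjusted p = 0.034), and Pdlim4, a cytoskeletal PDZ and LIM protein, had 16.3, 40.5, 13.4 and 43.7 CPM with DMM and 3.49, 1.33 and 13.8 CPM in the controls (log2 fold change 1.92, adjusted p = 0.00337). Tspan32 and Smpdl3b lost their calls without control library 1 or 4, Tspan32 also without DMM library 2 and Smpdl3b without control library 3 (adjusted p up to 0.14 and 0.17). Of Tspan32, succinate libraries 1 to 4 held 13.6, 9.78, 7.40 and 8.04 CPM, also above every control. Tspan32 was not called for DMM against succinate (adjusted p = 0.31).

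Genes of the cell cycle and DNA replication gave the most higher calls of any list. Of 49 genes 41 were tested, 9 rose and none fell. 40 of the 41 had a positive log2 fold change, where 50.7% of all genes tested did, and the median was 0.58. The 9 were Mki67, Top2a, Ccna2, Ccnd1, Cdk6, Mcm5, Mcm6, Rrm2 and Hmgb2. The count was 1 without control library 1 or 3, 3 without control library 4, and 6 to 11 without any 1 of the DMM libraries, while 38 or 39 members stayed positive in each of these fits.

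Ccnd1, cyclin D1, which is induced by growth factors in G1, had 118, 50.9, 68.4 and 64.6 CPM in DMM libraries 1 to 4, against 18.6, 16 and 25.3 CPM in control libraries 1, 3 and 4, a log2 fold change of 1.86 ± 0.28 (SE; adjusted p = 0.000265). It was called whichever library was left out. Top2a, the topoisomerase that untangles replicated DNA, had 225, 237, 188 and 231 CPM in DMM libraries 1 to 4, against 118, 97.4 and 162 CPM in control libraries 1, 3 and 4, a log2 fold change of 0.78 ± 0.17 (SE; adjusted p = 0.00912). Rrm2, a subunit of ribonucleotide reductase, had 97.9, 118, 104 and 138 CPM with DMM and 54.8, 45.4 and 80.4 CPM in the controls (log2 fold change 0.87, adjusted p = 0.00579), and Mcm5, of the replicative helicase, had 96.1, 86.2, 65 and 56.7 CPM with DMM and 39.6, 34.7 and 36.8 CPM in the controls (log2 fold change 1.03, adjusted p = 0.00751). Groups did not overlap for Ccnd1, Top2a, Rrm2 and Mcm5. Top2a was not called without control library 1 or 3 (adjusted p up to 0.114). Rrm2 was not called without control library 1 or 3 (adjusted p up to 0.0696), and Mcm5 was not called without control library 1, 3 or 4 (adjusted p up to 0.0563).

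Mki67, the proliferation antigen Ki-67, had 116, 110.4, 90.8 and 88.5 CPM in DMM libraries 1 to 4, against 57.1, 50.7 and 60.9 CPM in control libraries 1, 3 and 4 (log2 fold change 0.83, adjusted p = 0.0137). Ccna2, cyclin A2, had 81.6, 126, 81.8 and 105 CPM with DMM and 44.3, 42.7 and 74.7 CPM in the controls (log2 fold change 0.77, adjusted p = 0.0283), and the G1 kinase gene Cdk6 had 63.5, 63.8, 57.1 and 64.6 CPM with DMM and 30.3, 34.7 and 37.9 CPM in the controls (log2 fold change 0.81, adjusted p = 0.0353). The helicase gene Mcm6 had 123, 131, 128 and 132 CPM with DMM and 83.9, 81.4 and 87.3 CPM in the controls (log2 fold change 0.62, adjusted p = 0.0466). Hmgb2, a DNA-bending chromatin protein of dividing cells, had 18.1, 48.3, 47.1 and 52.7 CPM with DMM and 19.8, 12 and 23 CPM in the controls (log2 fold change 1.13, adjusted p = 0.0283), with DMM library 1 inside the range of the controls. Mki67 was not called without DMM library 1 or control library 1, 3 or 4 (adjusted p up to 0.0965). Ccna2 was not called without DMM library 1 or 3 or control library 1, 3 or 4 (adjusted p up to 0.129). Cdk6 was not called without DMM library 1, 3 or 4 or control library 1, 3 or 4 (adjusted p up to 0.177). Mcm6 was not called without DMM library 1, 2 or 4 or control library 1, 3 or 4 (adjusted p up to 0.193). Hmgb2 was not called without DMM library 3 or 4 or control library 1, 3 or 4 (adjusted p up to 0.156).

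TTTGAA is a form of the cell cycle genes homology region, an element through which the DREAM complex represses genes in resting cells. Mki67, Top2a and Hmgb2 were the called members of the list whose RefSeq windows held it, and their promoters are shown for comparison, with TTTGAA or its reverse complement TTCAAA in capitals (GRCm38.p6, 5′ to 3′ in the direction of the gene). The windows are chr7:135716330-135716629, minus strand, chr11:99024140-99024439, minus strand and chr8:57511593-57511892, plus strand.
Mki67: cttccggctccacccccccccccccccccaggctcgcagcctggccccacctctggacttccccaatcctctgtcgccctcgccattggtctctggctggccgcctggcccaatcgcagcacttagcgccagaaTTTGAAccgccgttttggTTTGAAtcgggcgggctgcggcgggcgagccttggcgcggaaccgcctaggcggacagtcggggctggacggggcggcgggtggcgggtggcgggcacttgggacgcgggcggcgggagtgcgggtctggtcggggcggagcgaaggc
Top2a: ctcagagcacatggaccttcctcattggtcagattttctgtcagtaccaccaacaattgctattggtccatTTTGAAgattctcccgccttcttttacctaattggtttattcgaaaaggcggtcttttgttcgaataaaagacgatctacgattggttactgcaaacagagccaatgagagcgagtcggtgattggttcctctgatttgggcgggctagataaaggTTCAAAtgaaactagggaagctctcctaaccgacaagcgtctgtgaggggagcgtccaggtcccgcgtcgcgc
Hmgb2: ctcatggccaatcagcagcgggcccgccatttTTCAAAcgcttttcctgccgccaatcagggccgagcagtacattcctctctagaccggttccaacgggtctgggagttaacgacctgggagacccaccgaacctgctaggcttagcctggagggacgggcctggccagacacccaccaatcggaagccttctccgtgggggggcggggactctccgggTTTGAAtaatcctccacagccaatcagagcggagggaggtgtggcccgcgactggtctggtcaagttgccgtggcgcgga
The matches in Mki67 start 116 and 98 bases before the gene's start, those of Top2a 179 and 23 bases and those of Hmgb2 218 and 30 bases before it. TTTGAA on either strand was in 17.9% of all windows, in 547 of 3807 tested genes, in 15 of 34 tested genes of the list with a window and in 3 of the 7 called ones. No statement about the factor follows from these letters.

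Of 8 tested genes for MHC class II and co-stimulation, 3 rose (H2-Aa, H2-Ab1 and Cd74) and 1 fell (Ctss), with a median of 0.74. H2-DMa and H2-DMb1, the chains of the peptide-exchange factor, were not called (log2 fold changes 1.09 and 0.73, adjusted p = 0.17 and 0.4), and no gene of the list was called higher within either set. H2-Aa, an MHC class II α chain, had 10.9, 61.2, 17.9 and 58.7 CPM in DMM libraries 1 to 4, against 6.99, 2.67 and 20.7 CPM in control libraries 1, 3 and 4 (log2 fold change 1.57, adjusted p = 0.00579). Cd74, the invariant chain, had 149, 335, 166 and 367 CPM in DMM libraries 1 to 4, against 87.4, 112 and 187 CPM in control libraries 1, 3 and 4 (log2 fold change 0.75, adjusted p = 0.0123), and the β chain gene H2-Ab1 had 14.5, 69.8, 23.5 and 67.6 CPM with DMM and 12.8, 9.34 and 31 CPM in the controls (log2 fold change 1.02, adjusted p = 0.0466). DMM libraries lay above the controls within each set but overlapped across sets. H2-Aa was not called without control library 4 (adjusted p up to 0.0936). Cd74 was not called without control library 1 or 4 (adjusted p up to 0.168), and H2-Ab1 was not called without DMM library 2, 3 or 4 or control library 1, 3 or 4 (adjusted p up to 0.373).

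Of 8 tested pro-inflammatory genes, all 8 had a positive log2 fold change, where 50.7% of all genes tested did, with a median of 0.30. The list's median was 0.35 for succinate against control and -0.10 for DMM against succinate. Against control, none fell and 1 rose with DMM. It was Clec4e, the receptor Mincle, with 47.1, 84.5, 69.5 and 89.5 CPM in DMM libraries 1 to 4, against 30.3, 18.7 and 34.5 CPM in control libraries 1, 3 and 4 and a log2 fold change of 1.31 ± 0.23 (SE; adjusted p = 0.001). The groups did not overlap, and the call held whichever library was left out. Nlrp3, the inflammasome sensor, had 14.5, 12.1, 13.4 and 10.9 CPM with DMM and 2.33, 5.34 and 4.59 CPM in the controls and was not called (adjusted p = 0.0937). Il1b had at most 17 counts and Tnf at most 8 in any of the 11 libraries, and neither was tested.

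Of 23 tested NRF2 and glutathione genes, 2 rose and none fell, although the list's median was -0.22. Txnrd1, thioredoxin reductase, had 39.9, 58.6, 39.2 and 56.7 CPM in DMM libraries 1 to 4, against 19.8, 21.3 and 27.6 CPM in control libraries 1, 3 and 4 (log2 fold change 1.01, adjusted p = 0.0139). Gclm, a subunit of the enzyme that starts glutathione synthesis, had 14.5, 28.4, 17.9 and 31.8 CPM with DMM and 1.16, 6.67 and 12.6 CPM in the controls (log2 fold change 1.57, adjusted p = 0.0283). Both were without overlap. Txnrd1 was not called without control library 1, 3 or 4 (adjusted p up to 0.105), and Gclm was not called without DMM library 1, 3 or 4 or control library 1 or 4 (adjusted p up to 0.162).

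Of 32 tested type I interferon response genes, 28 had a negative log2 fold change, where 49.3% of all genes tested did. The median was -0.35, 2 genes fell and none rose. For succinate against control the list's median was -0.18, and for DMM against succinate it was -0.16. Rtp4, an interferon-induced chaperone of receptors, had 156, 153, 193 and 227 CPM in DMM libraries 1 to 4, against 462, 398 and 294 CPM in control libraries 1, 3 and 4 (log2 fold change -0.98, adjusted p = 0.00454), and Slfn2, a schlafen family gene, had 105, 127, 129 and 140.2 CPM with DMM and 235, 219 and 171 CPM in the controls (log2 fold change -0.69, adjusted p = 0.0283). Groups did not overlap. Rtp4 was not called without control library 1 (adjusted p up to 0.0527), and Slfn2 was not called without DMM library 1 or 3 or control library 1, 3 or 4 (adjusted p up to 0.17). Of 20 tested ER chaperone and unfolded protein response genes 1 rose, Herpud1, an ER stress gene, with 43.5, 67.2, 33.6 and 66.6 CPM with DMM and 18.6, 18.7 and 34.5 CPM in the controls (log2 fold change 1.00, adjusted p = 0.0117). Herpud1 was not called without control library 1, 3 or 4 (adjusted p up to 0.0762). No heat shock (12 tested) or ATF4 target gene (11 tested) was called with the sets pooled. In the 4 h set 1 heat shock gene fell, Zfand2a (log2 fold change -1.57, adjusted p = 0.0226).

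With the sets pooled, no transcript of the enzyme that malonate inhibits was called. The same held among 9 tested for succinate handling (median -0.24), 24 of the TCA cycle (median -0.21), 17 of glycolysis (median -0.01), 9 for Hif1a and its targets (median 0.00) or 13 encoded by mitochondria (median -0.06). In the 48 h set 1 mitochondrially encoded gene fell, mt-Nd3, a complex I subunit (log2 fold change -1.34, adjusted p = 0.0492). Its log2 fold change was 0.18 in the 4 h set, and the difference had an unadjusted p of 0.000859 and an adjusted p of 0.345. Sdha, the flavoprotein subunit of succinate dehydrogenase, had 187, 188, 204 and 183 CPM in DMM libraries 1 to 4, against 223, 212 and 199.9 CPM in control libraries 1, 3 and 4 (log2 fold change -0.15, adjusted p = 0.735). The iron-sulfur subunit Sdhb had 94.3, 111, 122 and 125 CPM with DMM and 148, 121 and 148 CPM in the controls (log2 fold change -0.33, adjusted p = 0.387). The membrane anchors Sdhc and Sdhd had log2 fold changes of -0.24 and -0.33 (adjusted p = 0.814 and 0.502).

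Hif1a had 56.2, 37.1, 62.7 and 64.6 CPM in DMM libraries 1 to 4, against 86.2, 84.1 and 49.4 CPM in control libraries 1, 3 and 4 (log2 fold change -0.30, adjusted p = 0.545). Irg1, which makes itaconate, itself an inhibitor of succinate dehydrogenase, had 38.1, 17.2, 13.4 and 14.9 CPM in DMM libraries 1 to 4, against 14, 13.3 and 2.30 CPM in control libraries 1, 3 and 4 (log2 fold change 1.18, adjusted p = 0.12). Of 66 tested nuclear genes of oxidative phosphorylation none was called. 55 had a negative log2 fold change, where 49.3% of all genes tested did, and the median was -0.26. It was -0.14 in the 4 h set and -0.39 in the 48 h set, which had a single control. For succinate against control the list's median was -0.22, and for DMM against succinate it was -0.04. Ndufs8, a complex I subunit, had 39.9, 34.5, 51.5 and 38.8 CPM with DMM and 87.4, 61.4 and 56.3 CPM in the controls (log2 fold change -0.68, adjusted p = 0.0862). Slc2a1, the glucose transporter, had at most 8 counts in any library and was not tested. At this depth a miss does not show that a gene was unchanged.

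**Figure D4:**
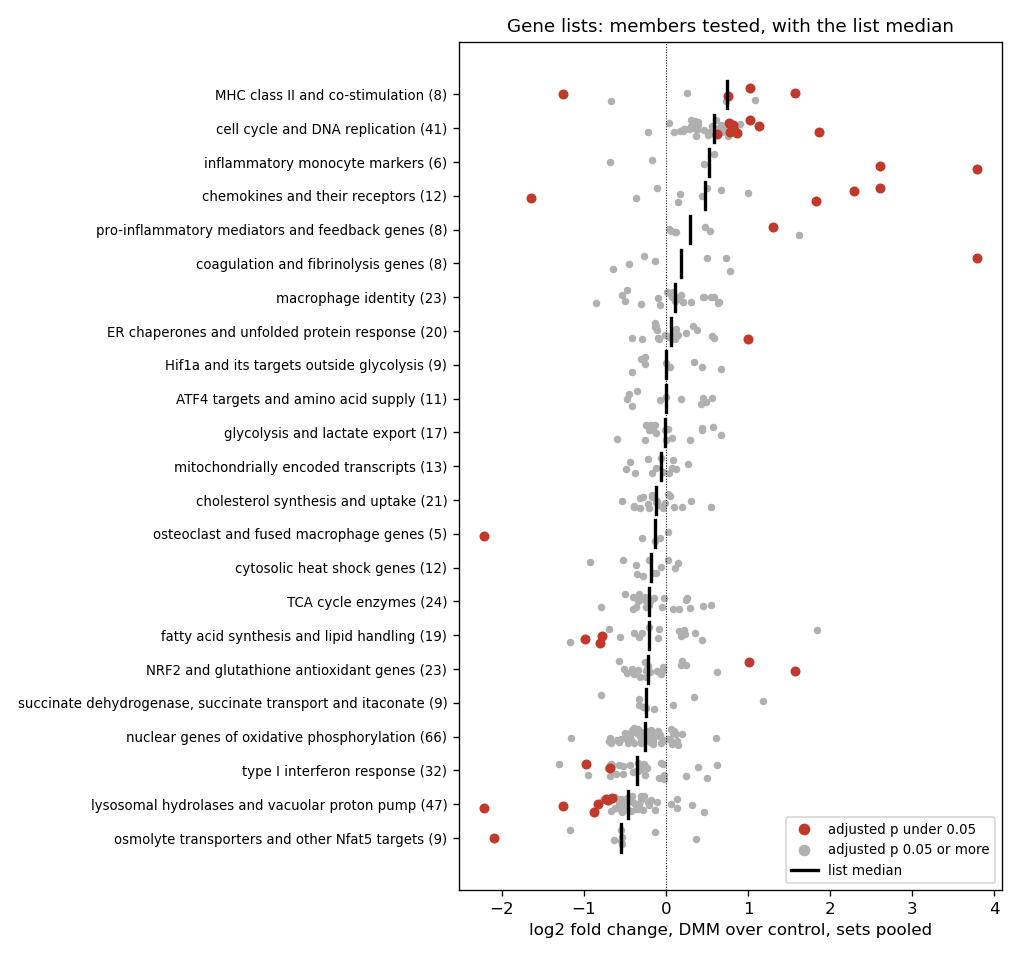
Log2 fold change, DMM over control with the sets pooled (x axis), of each tested member of the lists with 5 or more tested genes, whose number stands in brackets. Red points passed the test and bars are list medians, which run from -0.54 for osmolyte transporters and -0.46 for lysosomal genes to 0.58 for the cell cycle and 0.74 for MHC class II.

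Within the sets, 119 genes (2.28%) were called in the 4 h set, 64 higher (1.23%) and 55 lower (1.05%), and 23 (0.441%) in the 48 h set, 6 higher (0.115%) and 17 lower (0.326%). The 48 h set had a single control, assumed to vary like the other groups, and without DMM library 2 or 4 it gave 1 or 4 calls. In the 4 h set 13 calls were left without control library 1, 38 without control library 3 and 58 without DMM library 1. Of the genes called with the sets pooled, 37 of 76 higher and 43 of 77 lower ones were called in the 4 h set, and 6 and 12 in the 48 h set.

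No gene was called for the difference between the sets by edgeR, 275 had an unadjusted p under 0.05 (5.27% of those tested), and DESeq2 called 1. The smallest adjusted p was 0.0547, shared by Wfdc17, Gm9877 and Insig1. Ing5, a chromatin reader, had 14.5, 11.2, 15.7 and 10.9 CPM with DMM and 2.33, 2.67 and 8.04 CPM in the controls, with a log2 fold change of 2.55 in the 4 h set (adjusted p = 0.0358). Lpcat1, a lysophosphatidylcholine acyltransferase, was called in that set too. Its level was 14.5, 14.7, 13.4 and 7.95 CPM with DMM and 1.16, 1.33 and 6.89 CPM in the controls, and its 4 h controls held few counts, giving a ratio of 11.1 with a 95% counting interval of 2.71 to 98.3.

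Of the lists with 5 or more tested genes, cholesterol synthesis and uptake had the largest median difference between the sets (-1.26). With the sets pooled none of 21 tested genes was called and the median was -0.12. The median was 0.40 in the 4 h set, with 19 of 21 positive and none called. It was -0.90 in the 48 h set, with 19 of 21 negative, where 49.6% of all genes were, and 3 lower: Insig1, Idi1 and Fdps. For 11 of the 21 the difference had an unadjusted p under 0.05, and none passed after adjustment.

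Insig1, the ER protein that retains Srebp, had 276, 96.6, 306 and 80.5 CPM in DMM libraries 1 to 4, against 188, 219 and 211 CPM in control libraries 1, 3 and 4. Idi1, isopentenyl diphosphate isomerase, had 85.2, 30.2, 68.4 and 15.9 CPM in DMM libraries 1 to 4, against 54.8, 56 and 66.6 CPM in control libraries 1, 3 and 4. Farnesyl diphosphate synthase (Fdps) had 85.2, 26.7, 97.5 and 38.8 CPM in DMM libraries 1 to 4, against 71.1, 53.4 and 81.5 CPM in control libraries 1, 3 and 4. In each of the 3, DMM libraries 1 and 3 lay above and DMM libraries 2 and 4 below every control. The log2 fold change was 0.52, 0.45 and 0.56 in the 4 h set, and -1.25, -1.51 and -1.32 in the 48 h set (48 h adjusted p = 0.0444, 0.0498 and 0.0498). Without DMM library 2 or 4, and with RLE size factors or DESeq2, none was called there, while the 48 h median of the list stayed at -0.87 or lower.

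**Figure D5:**
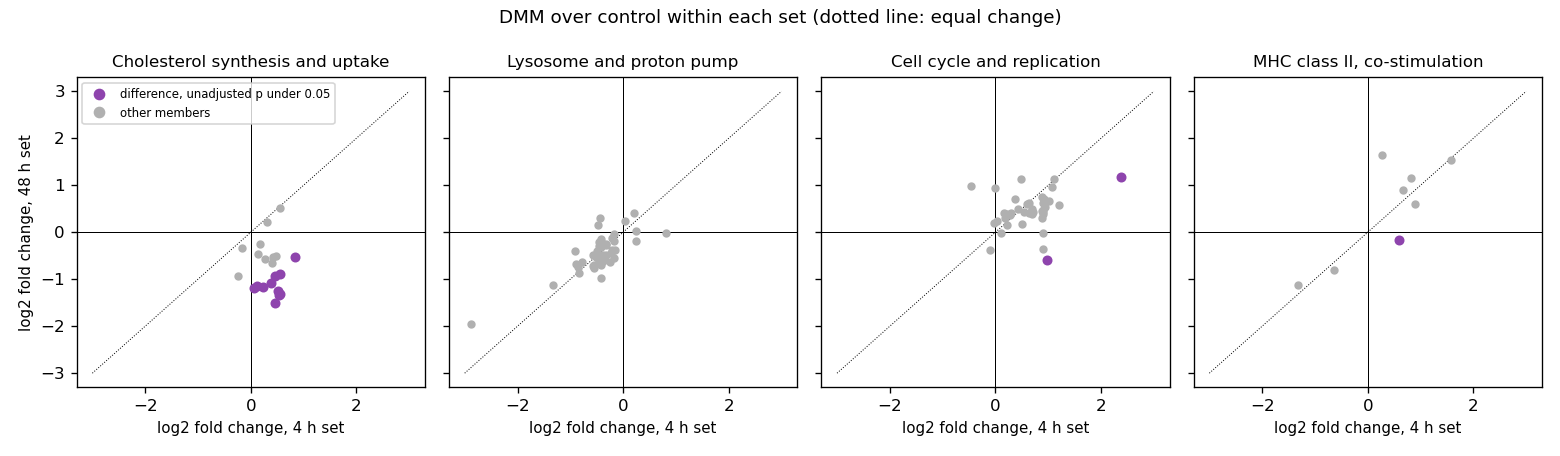
Log2 fold change, DMM over control, in the 4 h set (x axis) and the 48 h set (y axis) for the tested members of 4 lists; purple points had an unadjusted p under 0.05 for the difference, and the dotted line marks equal change. The cholesterol genes gather at positive 4 h and negative 48 h values (medians 0.40 and -0.90), while most lysosomal genes lie below 0 in both sets (medians -0.42 and -0.49).

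Among genes named for the 48 h set, Fabp5, a fatty acid binding protein, had 301, 60.3, 539 and 136 CPM in DMM libraries 1 to 4, against 664, 629.7 and 415 CPM in control libraries 1, 3 and 4, a log2 fold change of -2.08 (adjusted p = 0.0498). Rasgrp3, a Ras activator, had 111, 34.5, 93 and 18.9 CPM with DMM and 181, 149 and 82.7 CPM in the controls, and -1.61 in that set (adjusted p = 0.033). Tmem176b, a membrane protein gene of myeloid cells, had 30.8, 307, 56 and 345 CPM in DMM libraries 1 to 4, against 6.99, 10.7 and 115 CPM in control libraries 1, 3 and 4, with 2.35 in the 4 h set and 1.5 in the 48 h set (adjusted p = 0.000443 and 0.0274). Its exons overlap Tmem176a on the opposite strand, so reads of the pair may be mixed. Cd300ld, an activating receptor of myeloid cells, had 74.3, 173, 70.6 and 123 CPM with DMM and 44.3, 16 and 37.9 CPM in the controls (log2 fold change 1.54, adjusted p = 0.000531), and the tubulin gene Tubb6 had 88.9, 84.5, 63.9 and 56.7 CPM with DMM and 38.4, 29.4 and 19.5 CPM in the controls (log2 fold change 1.34, adjusted p = 0.00377), both without overlap. Tubb6 was not called without control library 4 (adjusted p up to 0.0845), and with the sets pooled Rasgrp3 was not called without control library 4 (adjusted p up to 0.116). Fabp5 was not called with the sets pooled (adjusted p = 0.345) or in the 4 h set (log2 fold change -0.61, adjusted p = 0.481).

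Against the succinate libraries 101 genes (1.94%) were called: 46 higher (0.881%) and 55 lower (1.05%) with DMM. Without DMM library 1 there were 66, without DMM library 4 there were 64, and without succinate library 1 there were 62. Succinate against control gave 3 calls (0.0575%). Of the genes called against control, 32 higher and 27 lower ones were also called in the same direction against succinate, although both comparisons hold the same DMM libraries. Atp6v0d2 was lower than in succinate libraries 1 to 4, which held 50.4, 35.5, 58.4 and 37.5 CPM (log2 fold change -2.79 ± 0.30 SE, adjusted p = 8.88e-07). Slc5a3, at 718, 147, 521 and 149 CPM in the succinate libraries, was lower with DMM too (log2 fold change -1.87, adjusted p = 8.88e-07). 10 of 41 cell cycle genes were higher and none lower, and 4 of 47 lysosomal genes were lower and none higher.

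Some genes were called against succinate and not against control. Apoc2, an apolipoprotein that activates lipoprotein lipase, had 10.9, 27.6, 16.8 and 41.8 CPM in DMM libraries 1 to 4, against 69.5, 108, 49.3 and 109.9 CPM in succinate libraries 1 to 4 (log2 fold change -1.78, adjusted p = 2.02e-06), with 25.6, 25.3 and 44.8 CPM in the controls. Tfrc, the transferrin receptor, had 9.07, 6.90, 6.72 and 3.98 CPM with DMM and 21.8, 13.5, 13.2 and 26.8 CPM with succinate, against 12.8, 4.00 and 10.3 CPM in the controls (against succinate, log2 fold change -1.54, adjusted p = 0.0291). The zinc transporter gene Slc39a10 had 3.63, 3.45, 4.48 and 3.98 CPM with DMM and 12.3, 6.11, 22.2 and 10.7 CPM with succinate, against 12.8, 14.7 and 11.5 CPM in the controls. DMM libraries lay below every succinate and every control library (against succinate, log2 fold change -1.67, adjusted p = 0.0347; against control, -1.56, adjusted p = 0.0732).

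Other genes were higher with DMM. Ly6a, the surface antigen Sca-1, had 10.9, 38.8, 8.96 and 46.7 CPM with DMM and 0, 2.45, 4.93 and 9.83 CPM with succinate, against 3.49, 0 and 17.2 CPM in the controls (against succinate, log2 fold change 2.37, adjusted p = 0.00245). Ch25h, which makes 25-hydroxycholesterol, had 18.1, 47.4, 13.4 and 54.7 CPM with DMM, 4.09, 13.5, 0.822 and 6.26 CPM with succinate and 3.49, 4.00 and 14.9 CPM in the controls (adjusted p = 1.87e-05 against succinate and 0.0041 against control). Slc40a1, the iron exporter ferroportin, had 7.25, 44, 7.84 and 50.7 CPM with DMM, 1.36, 13.5, 4.11 and 9.83 CPM with succinate and 0, 5.34 and 11.5 CPM in the controls (adjusted p = 0.00245 and 0.0133). Against control, Ch25h was not called without control library 4 (adjusted p up to 0.117), and Slc40a1 was not called without DMM library 4 or control library 1 or 4 (adjusted p up to 0.336). Direct tests of whether DMM differs more from control than from succinate were not run.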

How the data were processed

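The deposited table holds counts of reads per gene symbol, made by the authors and not normalised. TopHat2, Bowtie, HTSeq and edgeR are named in the submitters' processing notes. Their versions, the genome build and annotation, and whether counting used strand were not given in the sources used here. Per the labels' protocols, full-length cDNA was made by a variant of SmartSeq2 from cells lysed directly. No molecular identifiers are named, so reads are not independent molecules. Library totals were 662186 to 1223856 in the 11 unstimulated libraries; 1 CPM was a median of 0.876 counts.

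The 11 libraries were fitted in edgeR 4.0.16 (R 4.3.3) on the 5219 genes kept by filterByExpr (minimum count 10, total 15), with TMM scaling, group and set, and quasi-likelihood F tests; 7 residual degrees of freedom were left. Within-set contrasts and their difference came from a model of the 6 treatment-by-set groups. P-values were adjusted by Benjamini-Hochberg over all genes tested, at 0.05. CPM are scaled by TMM over the tested genes; sums over lists use total counts. The code was tested on simulated data.

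The libraries compared and the 31 gene lists were chosen with earlier results of these data known. Named genes were the 10 highest and 10 lowest changes among called genes of at least 10 CPM with 1 sign in both sets (5 and 5 within a set and against succinate), leaving out predicted and clone-named genes, 4 per list by smallest p, and 14 always given. Cstb, Rnh1, Csf1r, Mrc1, Cd5l, H2-DMa, H2-DMb1, the remaining called members of lists, and the 48 h cholesterol genes were named after their values were seen, as were the genes of the closing observations. Numbers were not used as pairs in the main fit, and whether they mark pairs could not be decided from the correlations given below. Alternatives were DESeq2 1.42.0, RLE factors, no filter, other library sets, a replicate block, no set term and leaving out each library. Promoters are RefSeq windows of 300 bases, GRCm38.p6, and exon overlaps are from the GENCODE M21 annotation. Exons of other named genes overlap neighbours as well, so their reads may be mixed too. Among them are Ccnd1, F13a1, Txnip and Khsrp on the opposite strand and Gclm, Rtp4 and Itgam on the same strand. The 10 LPS libraries are otherwise not analysed here, and 1 gene is not reported here.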

Additional observations from a re-analysis of the deposited data

Results flagged for a closer look

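1 value stood apart from the other libraries of its group: Lpcat1, a lysophosphatidylcholine acyltransferase, had 7.95 CPM in DMM library 4 against 13.4 to 14.7 CPM in the other 3 DMM libraries. It was the only one found among 47 items examined in the 4 DMM libraries, and chance alone would single out about 1 in 20 groups. Control libraries 1, 3 and 4 held 1.16, 1.33 and 6.89 CPM and succinate libraries 1 to 4 held 2.72, 15.9, 13.2 and 16.1 CPM of it. The pooled change of Lpcat1 was not called (log2 fold change 1.84, adjusted p = 0.091).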

How the results depend on the processing

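For DMM against control with the sets pooled, 153 genes were called, and 109 with DESeq2 (91 of the 153), 151 with RLE size factors, 192 without a filter, 155 from DMM and control libraries alone, 99 from 20 libraries (94 of the 153), 7 from all 21 libraries including the one labelled LPS 48 h 1, 21 without the set term, and 44 to 178 with 1 library left out. With DMM library 3 counted to the 48 h set, 36 were called.
For the 4 h set, 119 calls became 0 with all 21 libraries, 70 with 20 libraries and 13 to 162 with 1 library left out. For the 48 h set, 23 calls became 6 with DESeq2, 11 with RLE size factors, 1 from DMM and control libraries alone, 0 with all 21 and 2 with 20 libraries, and 1 to 4 with 1 DMM library left out; leaving out its lone control gives no value.
For the difference between the sets, 0 calls became 1 with DESeq2, 27 without a filter, 1 from DMM and control libraries alone, 0 to 23 with 1 library left out, and 17 with DMM library 3 counted to the 48 h set. For DMM against succinate, 101 calls became 67 with DESeq2, 7 with all 21 and 58 with 20 libraries, 13 without the set term, 62 to 115 with 1 library left out, and 36 with DMM library 3 moved. The cause of these shifts was not tested.
After group and set were fitted, the 10 same-numbered pairs had correlations of -0.29 to -0.03. All of them lie within a set, and same-set pairs with unlike numbers had -0.36 to -0.03. Fitting group and set pulls such values below 0, so they cannot decide whether the numbers mark pairs. A replicate block gave 133 calls with the sets pooled, 168 in the 4 h set, 14 in the 48 h set, 4 for the difference and 98 against succinate.
Of 47 named genes called with the sets pooled, 1 (Atp6v0d2) was called under all 16 alternatives, and 8 under all but the fit of 21 libraries: Atp6v0d2, Ccnd1, Ccr2, Ctss, Npy, Pld3, Snx20 and Syngr1. No named gene that was called changed sign. At this depth, genes under about 10 counts in most libraries could not be tested.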

Other observations

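Some genes called whichever library was left out stand outside the lists and were named after their values were seen. Txnip, the thioredoxin-binding arrestin that is induced by glucose, had 178, 589.7, 244 and 526 CPM in DMM libraries 1 to 4, against 76.9, 56 and 368 CPM in control libraries 1, 3 and 4 (log2 fold change 1.17, adjusted p = 0.00351). Lsp1, a leukocyte actin-binding protein, had 350.0, 531, 387 and 579.7 CPM in DMM libraries 1 to 4, against 172, 136 and 307 CPM in control libraries 1, 3 and 4 (log2 fold change 1.07, adjusted p = 0.000494). Psmd8, a subunit of the proteasome's regulatory particle, had 161, 118, 236 and 168 CPM with DMM and 464, 387 and 287 CPM in the controls (log2 fold change -1.06, adjusted p = 0.000471). The sugar-phosphate exchanger gene Slc37a2 had 138, 108, 140.1 and 84.5 CPM with DMM and 266, 272 and 219 CPM in the controls (log2 fold change -1.03, adjusted p = 0.00041), and the fatty acid transporter gene Slc27a1 had 85.2, 50, 93 and 30.8 CPM with DMM and 206, 177 and 71.2 CPM in the controls (log2 fold change -1.01, adjusted p = 0.00275). Groups did not overlap for Lsp1, Psmd8 and Slc37a2.

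Alox5, 5-lipoxygenase, which starts leukotriene synthesis, had 27.2, 50.9, 26.9 and 44.7 CPM in DMM libraries 1 to 4, against 10.5, 12 and 14.9 CPM in control libraries 1, 3 and 4 (log2 fold change 1.44, adjusted p = 0.00392), and without control library 4 its adjusted p was 0.095. Xist, the RNA that silences the X chromosome in female cells, had 151, 125, 109.8 and 115 CPM in DMM libraries 1 to 4, against 74.6, 62.7 and 74.7 CPM in control libraries 1, 3 and 4 (log2 fold change 0.81, adjusted p = 0.023), with succinate libraries 1 to 4 at 101, 99, 62.5 and 63.5 CPM; it was not called without DMM library 1 or any 1 of the 3 controls.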
